A study of Mus musculus with 68 samples.

Results

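The comparison described here is the age difference within 1 genotype, late minus early, in prostate tumours of SPARC-null TRAMP mice. It was defined by the genotype and age in the sample labels: 9 late arrays (ST1 to ST7, ST15 and ST16, 24 to 29 weeks) were set against 6 early arrays (ST22 to ST27, 18 to 19 weeks), which makes 15 of the 68 arrays of the series. All 22206 target probe sets of the 29129 in the table were tested. Every array carries total RNA of 1 animal with its own code, measured on a Clariom S expression array, and levels are log2 values.

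All 15 animals had the genotype SPARC-/- TRAMP +/-, so both ages lack SPARC and both carry the transgene. Of the late animals, 2 were 24 weeks old (ST15, ST16), 6 were 27 weeks old and 1 was 29 weeks old (ST6), and of the early animals 4 were 18 weeks old and 2 were 19 weeks old (ST22, ST23). The groups set beside them were TRAMP +/- mice with intact SPARC (7 early of 16 weeks, 7 late of 24 to 25 weeks), OPN-/- TRAMP +/- mice (6 early of 16 to 17 weeks, 3 late of 24 to 27 weeks) and SPARC-/- mice without the transgene (7 early of 16 to 18 weeks, 4 late of 25 to 27 weeks). The series was designed around adenocarcinoma and neuroendocrine prostate cancer (NEPC), but the labels assign no array to either tumour type. The label of the tissue is the same for every array, transgenic or not.

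In TRAMP mice the early region of simian virus 40 (SV40) is driven by the rat promoter of probasin, an androgen-regulated gene of prostate secretory cells, and its T antigens disable the p53 and retinoblastoma proteins. Lesions of the prostate epithelium then progress with age, and a share of animals develops poorly differentiated tumours with neuroendocrine features. SPARC is a secreted matricellular protein that binds collagen and modulates the assembly of the matrix, and in tumours it is made largely by stromal cells. The transgene acts in epithelial cells in which that promoter is active, while the arrays measured whole tissue, in which fewer cells of a type and less RNA per cell cannot be told apart.

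The transgene could be followed through 6 control probe sets for SV40. Their mean log2 level on the early arrays was 5.85 in ST22, 6.37 in ST23, 6.87 in ST26, 6.87 in ST27, 7.26 in ST24 and 7.62 in ST25, and on the late arrays it ran from 7.28 to 8.02. The late group averaged 7.55 ± 0.26 (SD, n = 9) and the early group 6.81 ± 0.63 (SD, n = 6). ST25 and the late arrays overlapped, and the other 5 early arrays lay below all the late ones. The difference of 0.75 had a 2-sided exact permutation p of 0.0038, with 2e-04 as the smallest p that 9 against 6 arrays allow. Without the 2 early arrays of 19 weeks the difference was 0.40 (exact permutation p = 0.0462). On SPARC-null arrays without the transgene these probe sets averaged 5.16 (early) and 5.15 (late), and their highest array there read 5.36, below the lowest of the 15 arrays. In TRAMP mice with intact SPARC they averaged 6.82 ± 0.52 (SD, n = 7) in early and 7.30 ± 0.27 (n = 7) in late tumours. In OPN-null TRAMP mice they averaged 7.19 ± 0.54 (n = 6) and 7.89 ± 0.53 (n = 3). The late group was thus higher in these genotypes too, where the difference was not tested.

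ST22 and ST23 stood apart from the other 13 arrays in further measures. Array quality, the area under the curve that separates positive from negative control probe sets, was 0.689 and 0.706 on these arrays, 0.733 to 0.741 on the other early arrays and 0.715 to 0.780 on the late arrays. The group means of 0.743 ± 0.0192 (late) and 0.724 ± 0.0219 (early) had a 2-sided exact permutation p of 0.11. The first principal component, with 49.5% of the variance of the 15 arrays, placed ST22 at 78.4 and ST23 at 58.7 and the late arrays ST15 and ST16 at the other end, at -51.1 and -34.0. Without ST22 and ST23 the late minus early difference in array quality was 0.0048 (exact permutation p = 0.657). Because array quality in the early group was lowest in these 2 animals, many of the differences below are also given without the 19-week arrays. Some list medians are also given with array quality as a covariate. The part of array quality in the results was not tested further than the values shown. Sparc itself (probe set TC1100002783.mm.2) read 5.77 to 6.52 on late and 6.28 to 6.96 on early arrays, with overlapping groups and a difference of -0.26 (SE 0.14, limma adjusted p = 0.257). The group means of Sparc, 6.23 (late) and 6.48 (early), lay below those of TRAMP mice with intact SPARC, 6.57 and 6.73, and above those of SPARC-null mice without the transgene, 6.03 and 6.21. Single arrays were not separated by genotype, since 11 of the 15 SPARC-null TRAMP arrays read above the lowest array with intact SPARC, at 6.18.

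**Figure D1:**
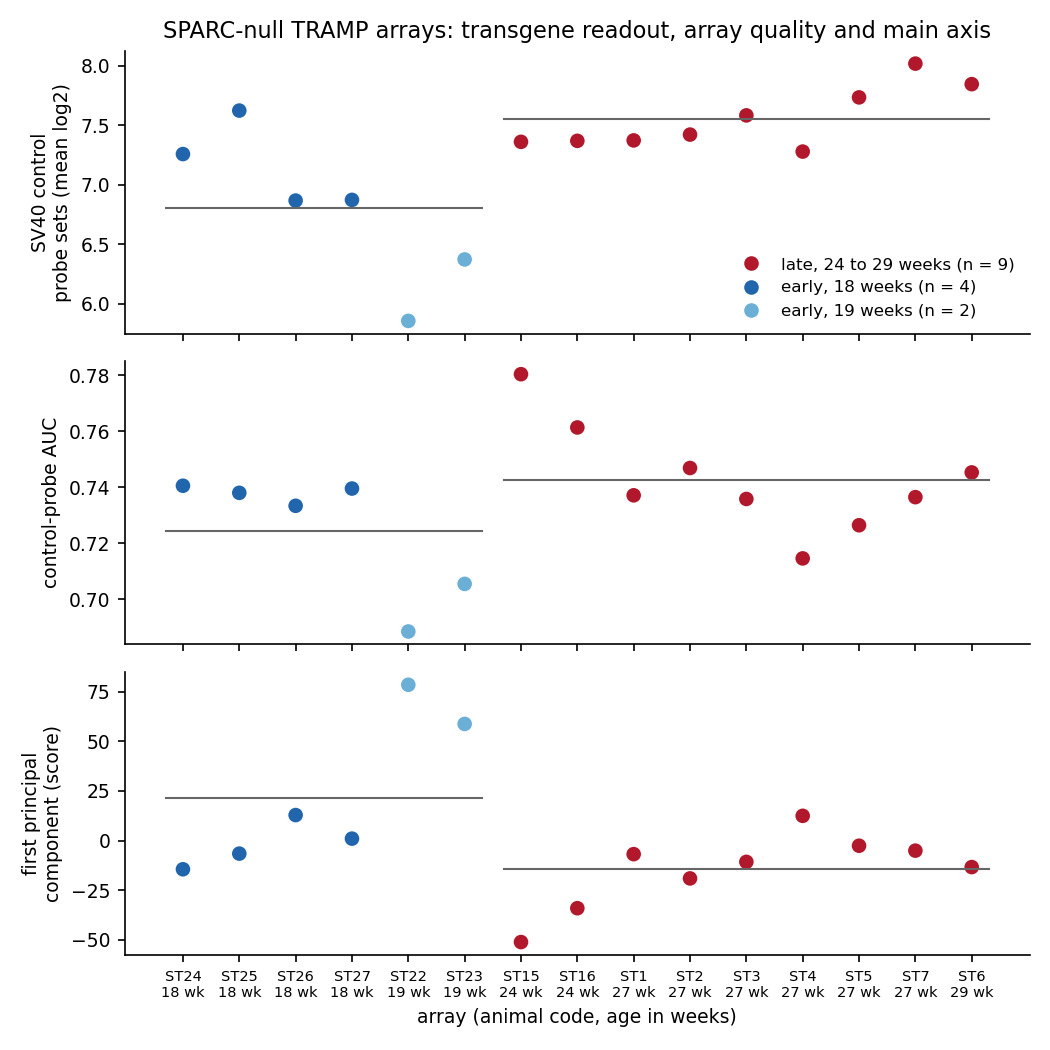
Each of the 15 SPARC-null TRAMP arrays is plotted in order of age against the mean log2 level of 6 SV40 control probe sets (top), the control-probe AUC as array quality (middle) and the score on the first principal component (bottom), with grey lines at the group means. The early arrays ST22 and ST23 of 19 weeks have the 2 lowest SV40 levels (5.85 and 6.37) and the 2 highest component scores (78.4 and 58.7).

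Across all genes, none passed the test between late and early SPARC-null TRAMP tumours. With limma, 0 of 22206 probe sets (0%) had a Benjamini-Hochberg adjusted p under 0.05, and the smallest was 0.0679. An unadjusted p under 0.05 was reached by 4747 probe sets (21.4%), 2202 higher and 2545 lower in late tumours. The number was 956 (4.31%) when the 2 early arrays of 19 weeks were left out, again with 0 adjusted calls. Leaving out ST22 alone gave 2263 and ST23 alone 2813. The count of adjusted calls also turned on single arrays in the other direction: without ST24 it was 266, without ST25 it was 279, without ST6 it was 1, and without any one of the other 12 arrays it was 0. The 95% confidence interval of a difference extended a median of 0.24 log2 units to each side and lay within ±1 for 95% of probe sets. For most probe sets a difference in measured signal of more than a doubling was thus outside the interval. The 22206 include dim probe sets, where differences are compressed, and a filter on these keeps 16221. The interval also rests on a spread shared by all the transgenic groups.

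A complete separation of the groups was seen at 68 probe sets (0.306%), 28 with every late array above every early one and 40 with every late array below. Of these, 56 have a gene symbol. The genes described next were chosen after their values were seen, for the smallest p-values or for such a separation, and none passed the adjusted test in the fit of 38 transgenic arrays. Their values are a description.

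Tff3 (TC1700001811.mm.2) encodes trefoil factor 3, a small secreted peptide of mucosal and goblet-type epithelium. Its late levels were 7.79, 7.85, 6.76, 7.20, 8.66, 7.37, 8.78, 8.98 and 8.57 in ST1 to ST7, ST15 and ST16, and its early levels were 5.88, 6.50, 6.31, 5.82, 6.27 and 7.25 in ST22 to ST27. The groups overlapped only through ST27 among the early arrays and ST3 and ST4 among the late ones. The difference of 1.66 (SE 0.37, 95% interval 0.91 to 2.41) had an adjusted p of 0.102 in limma and was 1.58 without the 19-week arrays. In a fit of all 67 arrays with a group the adjusted p was 0.0103, and the Tff3 difference also passed without ST24 and without ST25 (adjusted p = 0.045 each).

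Hepacam2 (TC0600001788.mm.2), a cell adhesion molecule of the immunoglobulin superfamily, had no overlap between the groups. Its levels ran from 7.37 through a median of 7.89 to 8.67 in late tumours and from 6.52 through 7.04 to 7.33 in early ones. The difference was 0.90 (SE 0.18, adjusted p = 0.0809 in limma), and 0.74 without the 19-week arrays.

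Gbp3 (TC0300001446.mm.2), an interferon-inducible guanylate-binding protein, also separated the groups. It read 6.53, 6.84 and 7.39 (lowest, median, highest) in late and 4.96, 5.94 and 6.42 in early tumours, with a difference of 1.08 (SE 0.24, limma adjusted p = 0.102; 0.76 without the 19-week arrays). Samd9l, an interferon-induced antiviral and growth-restraining protein, read 6.64, 7.05 and 7.41 against 5.72, 6.08 and 6.32. Its difference of 0.92 (SE 0.21) was 0.92 without the 19-week arrays too. Samd9l was the 1 gene called when the 15 SPARC-null TRAMP arrays were fitted alone. Resf1, a regulator of retroelement silencing, read 9.79 to 10.14 in late and 8.27 to 9.72 in early tumours, with a difference of 0.80 that was 0.41 without the 19-week arrays.

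The next 3 genes read lower in late tumours. F12 (TC1300002058.mm.2), coagulation factor XII, read 4.20, 4.51 and 4.57 in late and 4.76, 5.12 and 5.51 in early tumours, with a difference of -0.65 (SE 0.13, limma adjusted p = 0.0809; -0.54 without the 19-week arrays). Both group means of F12, 4.46 and 5.12, lie below the median of the negative control probe sets, 5.38, so this gene was dim. Nox4, a NADPH oxidase that makes hydrogen peroxide and is induced by TGF-beta in fibroblasts, read 4.53 to 5.37 in late and 5.40 to 6.05 in early tumours. Every late Nox4 level lies below that same control median, so the size of its difference was not resolved. Zfp865 (TC0700000052.mm.2), a zinc finger protein, held the smallest p of all. It read 6.24 to 6.54 in late and 6.53 to 7.07 in early tumours and overlapped by ST6 and ST25 (difference -0.44, SE 0.08, limma adjusted p = 0.0679; -0.33 without the 19-week arrays).

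**Figure D2:**
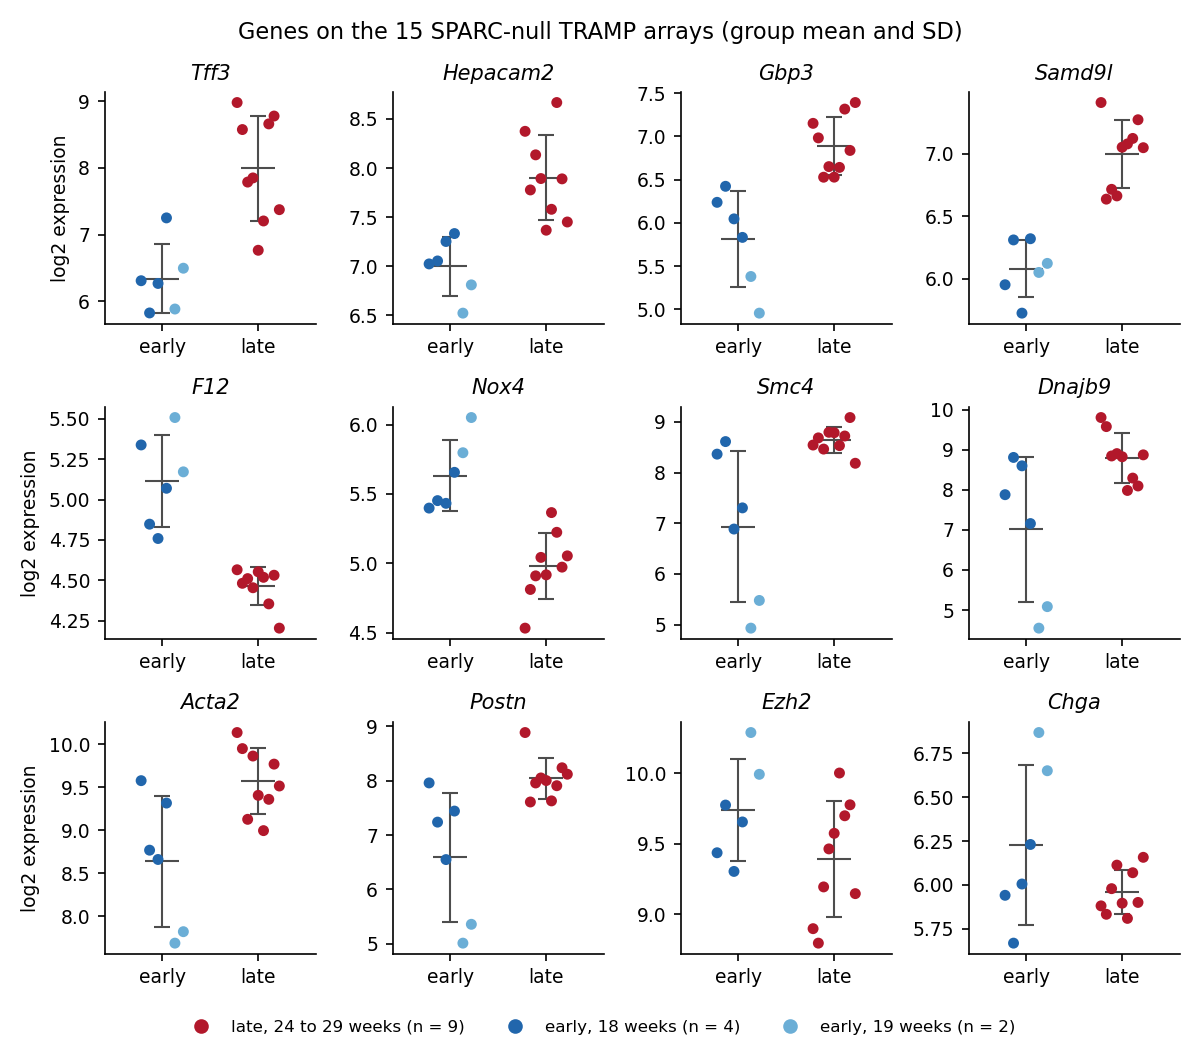
Log2 levels of 12 genes on the 15 SPARC-null TRAMP arrays, 1 point per array, with the mean and SD of each group (9 late, 6 early) and the 2 early arrays of 19 weeks in light blue. Hepacam2, Gbp3, Samd9l, F12 and Nox4 show no overlap between late and early, while for Smc4, Dnajb9, Acta2 and Postn the 2 arrays of 19 weeks lie far below the other early arrays.

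Rbbp6, with the largest difference of all probe sets, and Smc4, both also chosen after their values were seen, had another shape. Rbbp6 encodes a ubiquitin ligase that binds the retinoblastoma protein, and was 4.13 and 4.71 in ST22 and ST23, 8.40 to 9.82 in the 4 early arrays of 18 weeks and 8.12 to 10.67 in late tumours. Its difference of 1.995 (SE 0.69) became 0.46 without the 19-week arrays. Smc4, a subunit of condensin, was 4.93 and 5.48 in ST22 and ST23, 6.89 to 8.61 in the other early arrays and 8.18 to 9.09 in late tumours, with a difference of 1.72 (SE 0.39) that became 0.85. The Smc4 difference had an adjusted p of 0.102 in limma. It passed in 2 of 29 alternatives, without ST24 (adjusted p = 0.0395) and without ST25 (0.0252). For both genes the 18-week arrays overlapped the late arrays and the 19-week arrays did not.

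The same comparison was then read by gene lists, 42 in all, with 619 of their 681 entries measured under a gene symbol. In limma 0 members of any list had an adjusted p under 0.05. Each list is therefore described by its median difference, beside the median of all probe sets, -0.04, and by its members at an unadjusted p under 0.05. The share of all probe sets at that level was 21.4%, 4.31% without the 19-week arrays and 9.46% with array quality as a covariate, and the share of each list is to be read against it.

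**Figure D3:**
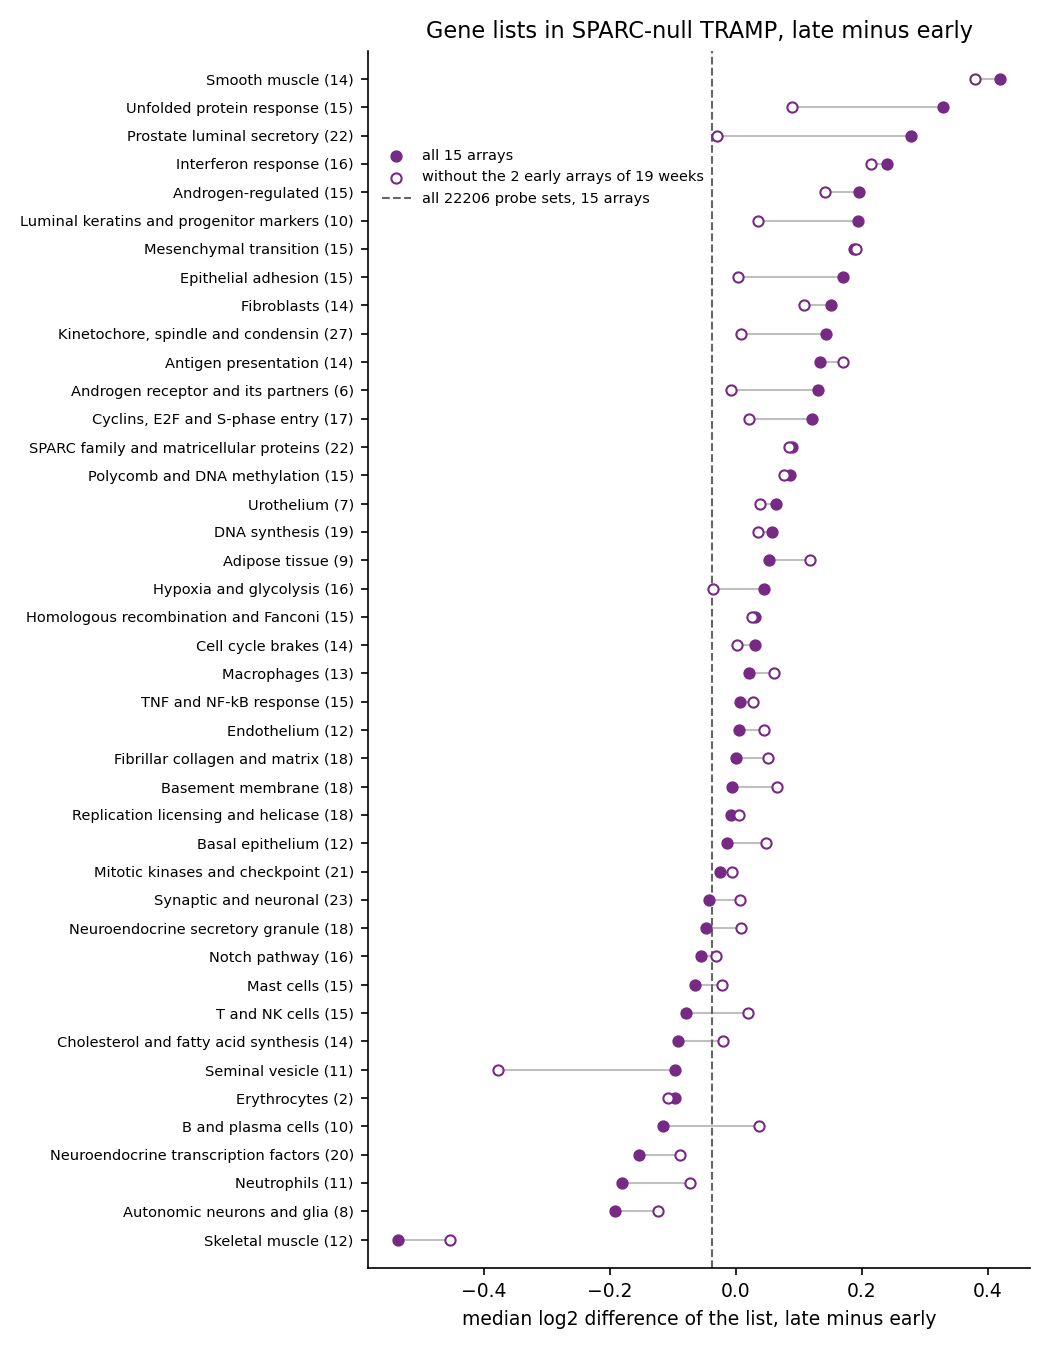
Median log2 difference, late minus early, of 42 gene lists in SPARC-null TRAMP tumours (number of measured members in brackets), with all 15 arrays (filled points) and without the 2 early arrays of 19 weeks (open points). The dashed line is the median of all 22206 probe sets (-0.04); smooth muscle lies highest at 0.42 and skeletal muscle lowest at -0.54.

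Among the lists of prostate epithelium, the secretory products of luminal cells had a median difference of 0.28 over 22 members, -0.03 without the 19-week arrays and 0.00 with array quality as a covariate. None of the 22 passed in limma, and 4 (18.2%, below the 21.4% of all probe sets) had an unadjusted p under 0.05, all higher in late tumours. Clu, the chaperone clusterin that increases on androgen withdrawal, read 8.43, 9.21 and 10.82 (lowest, median, highest) in late and 6.49, 8.03 and 9.11 in early tumours, with a difference of 1.38 (SE 0.41; 0.91 without the 19-week arrays). Its highest levels were those of ST15 and ST16, at 10.82 and 10.34. Mmp7, a matrix metalloproteinase of glandular epithelium, read 9.79, 10.03 and 10.66 against 7.58, 8.88 and 9.96, a difference of 1.17 (SE 0.35; 0.73 without them). Tgm4, the prostate transglutaminase, was 9.78 and 10.96 in ST22 and ST23 and 11.56 to 12.68 in the other 13 arrays.

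Pbsn, probasin, was high at both ages. It read 9.99, 11.19 and 11.55 in late and 9.88, 10.48 and 11.08 in early tumours, so the groups overlapped over most of their range. The difference was 0.44 (SE 0.48, 95% interval -0.53 to 1.41, limma adjusted p = 0.583; 0.39 without the 19-week arrays). Every one of the 15 arrays read above 9.33, the 95th percentile of the negative control probe sets, so the labelled tissue carried its defining secretory transcript throughout. The 250 bases before the start of the endogenous gene are shown because the transgene uses the promoter of the orthologous gene in rat. They lie at chrX:77853501-77853750 on the minus strand (RefSeq, GRCm38.p6), 5′ to 3′, with AGAACA, the core hexamer of androgen receptor elements, in capitals, whose first base lies 95 bases upstream.
Pbsn: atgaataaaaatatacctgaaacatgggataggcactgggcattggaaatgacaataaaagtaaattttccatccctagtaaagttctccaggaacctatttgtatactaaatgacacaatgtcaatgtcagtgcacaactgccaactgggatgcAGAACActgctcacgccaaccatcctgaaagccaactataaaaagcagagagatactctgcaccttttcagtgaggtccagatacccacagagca

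The androgen receptor gene itself has no named probe set here. The 15 measured genes of the androgen-regulated list had a median of 0.20 (0.14 without the 19-week arrays, 0.04 with array quality as a covariate). In limma 0 passed and 3 (20%, near the share of all probe sets) had an unadjusted p under 0.05, all higher in late tumours. Fkbp5, a chaperone partner of the receptor and among its most used targets, read 8.04 to 10.08 in late and 8.83 to 10.25 in early tumours, with ST15 and ST16 lowest. Its difference of -0.37 (SE 0.26; -0.46 without the 19-week arrays) had the opposite sign to the list's median. Luminal keratins and progenitor markers had a median of 0.19, and 0.04 without the 19-week arrays. Krt18 was 8.35 and 8.78 in ST22 and ST23 and 9.65 to 10.22 in the other 13 arrays. Epithelial adhesion genes behaved alike, with a median of 0.17 that became 0.00. For Cdh1, E-cadherin, late levels of 8.25, 8.51 and 9.17 overlapped early levels of 7.51, 8.41 and 8.82 (difference 0.32, SE 0.18; 0.16 without the 19-week arrays).

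The stroma gave the highest list median. Smooth muscle genes, which encode the contractile apparatus of the fibromuscular stroma around prostate glands, had a median difference of 0.42, which was 0.38 without the 19-week arrays and 0.21 with array quality as a covariate. None of 14 passed in limma and 8 (57.1%) had an unadjusted p under 0.05, all higher in late tumours. Without the 19-week arrays 1 did (7.14%), Cnn1. Acta2, smooth muscle actin, read 8.997, 9.52 and 10.14 in late and 7.69, 8.72 and 9.58 in early tumours (difference 0.93, SE 0.34, limma adjusted p = 0.145; 0.49 without them). Cnn1, calponin, read 10.33, 10.89 and 11.18 against 9.78, 10.12 and 10.66 (difference 0.62, SE 0.23; 0.54 without them). Averaged over the 14 genes, the late arrays ran from 8.41 to 8.95. The early arrays ST24 and ST27, at 8.63 and 8.64, lay inside that range, and the other 4, from 7.87 to 8.16, lay below it.

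Matrix genes were read by family. The SPARC family and other matricellular proteins had a median of 0.09 over 22 genes, with 0 passing in limma. At an unadjusted p under 0.05 there were 4 (18.2%, below the 21.4% of all probe sets), and 0 without the 19-week arrays. Postn, periostin, a matricellular protein of activated fibroblasts, was 5.01 and 5.36 in ST22 and ST23, 6.55 to 7.96 in the other early arrays and 7.61 to 8.88 in late tumours (difference 1.45, SE 0.45; 0.75 without the 19-week arrays). Sparcl1, the closest relative of SPARC, read 7.66, 8.77 and 9.51 in late and 6.74, 7.49 and 8.93 in early tumours, a difference of 1.12 (SE 0.37; 0.74 without them). Among early arrays, ST24 lay inside the late range of both genes and ST27 inside that of Sparcl1. Fibrillar collagen and matrix genes had a median of 0.00 over 18 genes. In limma 0 passed, and 3 were higher and 3 lower (33.3% together) at an unadjusted p under 0.05. Without the 19-week arrays the share was 0%. Col1a1 and Col3a1, chains of the main fibrillar collagens, differed by -0.15 (SE 0.10) and 0.20 (SE 0.17), and by -0.04 and -0.01 without the 19-week arrays. Lum, lumican, a proteoglycan of collagen fibrils, had the largest difference of that list, 1.35 (SE 0.42; 0.93 without the 19-week arrays).

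The basement membrane list had a median of -0.01 over 18 genes. At an unadjusted p under 0.05 this list had 2 higher and 1 lower (16.7% together), and 5.56% without the 19-week arrays. Within it Nid1, nidogen, which links laminin to type IV collagen, read 6.89, 7.35 and 7.47 in late and 6.66, 6.77 and 7.01 in early tumours. The groups touched only between ST16 and ST22, and the difference of 0.47 (SE 0.11, limma adjusted p = 0.11) was 0.53 without the 19-week arrays. Genes of mesenchymal transition had a median of 0.19 with and without those arrays, with 0 of 15 passing in limma and 5 higher and 1 lower (40% together) at an unadjusted p under 0.05. Leaving those arrays out gave 2 higher and 0 lower (13.3%, against 4.31% of all probe sets). Fn1, fibronectin, differed by 0.52 (SE 0.18; 0.53 without the 19-week arrays) and Snai2, a repressor of E-cadherin, by 0.33 (SE 0.15; 0.33 without them). Vim, vimentin, and Cdh2, N-cadherin, differed by -0.04 (SE 0.12) and -0.24 (SE 0.13), and by 0.08 and -0.16 without them. The fibroblast list had a median of 0.15 over 14 genes, which ran from -0.30 to 0.85, with 0 passing in limma. At an unadjusted p under 0.05 it had 3 higher and 1 lower (28.6% together). That share was 14.3% without the 19-week arrays and 7.14% with array quality as a covariate. In this list 1 gene, Ly6c1, separated the groups, at 7.17 to 8.90 in late and 6.33 to 7.13 in early tumours. Ly6c1 is a surface antigen also found on endothelium and myeloid cells.

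Of the immune lists, the interferon response stood highest, with a median of 0.24, and 0.21 without the 19-week arrays. In limma 0 of 16 passed, and 8 (50%) had an unadjusted p under 0.05, all higher in late tumours. Without the 19-week arrays 3 did so (18.8%, against 4.31% of all probe sets). The ranges of 2 of the 16 genes were apart. Oas1a, which senses double-stranded RNA, separated the groups in addition to Gbp3, at 6.35 to 6.71 in late and 5.68 to 6.32 in early tumours (difference 0.35, SE 0.12; 0.26 without the 19-week arrays). Isg15, the ubiquitin-like interferon product, read 5.83, 6.14 and 6.66 against 5.47, 5.95 and 6.21 (difference 0.29, SE 0.13; 0.23 without them), while Ifit1 and Ifit3 differed by -0.06 and -0.20. Antigen presentation had a median of 0.13 (0.17 without the 19-week arrays), with 0 of 14 passing in limma and 5 (35.7%) at an unadjusted p under 0.05, all higher. Of these 14 genes, 1 (7.14%) had such a p without the 19-week arrays. B2m, the light chain of class I molecules, was 13.12 to 13.35 in late tumours, 12.86 to 13.19 in 18-week tumours and 11.46 and 12.13 in ST22 and ST23. The lists of mast cells, neutrophils, macrophages, T and NK cells and B-lineage cells had medians between -0.18 and 0.02.

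For the neuroendocrine lists the question is whether late SPARC-null tumours read as NEPC. Transcription factors of the neuroendocrine lineage had a median of -0.15, and -0.09 without the 19-week arrays. In limma 0 of 20 passed, and at an unadjusted p under 0.05 none was higher and 5 (25%) were lower in late tumours, against 0 without the 19-week arrays. Chga, chromogranin A, a core protein of secretory granules, read 5.81, 5.90 and 6.16 in late tumours, 5.67 to 6.23 in 18-week tumours and 6.87 and 6.65 in ST22 and ST23. Its difference of -0.27 (SE 0.13) became 0.00 without the 19-week arrays. Syp, synaptophysin, and Insm1, a zinc finger factor of endocrine cells, differed by -0.15 (SE 0.13) and -0.06 (SE 0.14), with 95% intervals of -0.42 to 0.13 and -0.35 to 0.23; without the 19-week arrays they differed by -0.13 and -0.03. Foxa2, a marker of neuroendocrine TRAMP lesions, differed by -0.13 (SE 0.10, 95% interval -0.34 to 0.07; -0.14 without them). No late array stood apart in this list, whose mean ran from 5.66 to 5.90 in late and from 5.82 to 6.10 in early tumours. These means lie near the median of the negative control probe sets, 5.38, and below the lowest median of target probe sets on any array, 6.25. At such low signal, differences near 0 do not show that the levels of these genes stayed the same.

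The secretory granule list had a median of -0.05 over 18 genes (0.01 without the 19-week arrays), with 0 passing in limma, 2 higher and 3 lower (27.8% together) at an unadjusted p under 0.05. That share was 5.56% without the 19-week arrays. The 2 higher genes are peptide-processing enzymes with wider expression. Cpe, carboxypeptidase E, was 9.16 and 9.74 in ST22 and ST23 and 11.53 to 12.52 in the other 13 arrays (difference 1.14, SE 0.33; 0.31 without the 19-week arrays). Pam, which amidates peptides, read 8.23, 8.63 and 10.22 in late and 7.27, 8.09 and 8.38 in early tumours, with ST15 and ST16 highest (difference 0.99, SE 0.30; 0.76 without them). Synaptic and neuronal genes had a median of -0.04, equal to that of all probe sets, and 0.01 without the 19-week arrays.

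Proliferation genes had medians on both sides of 0. They were 0.14 for kinetochore, spindle and condensin genes (0.01 without the 19-week arrays), -0.03 for mitotic kinases and checkpoint genes (-0.01), -0.01 for replication licensing (0.01) and 0.06 for DNA synthesis (0.04). Of the 27 kinetochore, spindle and condensin genes, 0 passed in limma and 6 (22.2%) had an unadjusted p under 0.05, all higher in late tumours, against 1 (3.70%) without the 19-week arrays, both near the shares of all probe sets. Mki67, the Ki-67 antigen of cycling cells, was 5.85 and 5.68 in ST22 and ST23, 6.78 to 7.80 in 18-week tumours and 7.23 to 7.73 in late tumours (difference 0.64, SE 0.23; 0.11 without them). Ezh2, the histone methyltransferase of Polycomb complex 2 and an E2F target, had a late median of 9.46, a lowest late level of 8.79 in ST16 and early levels of 9.30, 9.71 and 10.29. Its difference of -0.35 (SE 0.16) was -0.15 without the 19-week arrays, and the groups overlapped. The Polycomb and DNA methylation list ran from -0.35 to 0.66, with a median of 0.09 over 15 genes. In limma 0 of them passed, and 5 were higher and 4 lower (60% together) at an unadjusted p under 0.05. Without the 19-week arrays that share was 6.67%. Among the early arrays ST22 and ST23 were thus lowest in Mki67 and Smc4 and highest in Ezh2.

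The unfolded protein response, which secretory cells use to match folding capacity to load, had a median of 0.33, and 0.09 without the 19-week arrays. In limma 0 of 15 passed and 6 (40%) had an unadjusted p under 0.05, all higher in late tumours. Without those arrays 2 did so (13.3%), as with array quality as a covariate. Dnajb9, a chaperone partner of BiP in the endoplasmic reticulum, was 4.55 and 5.08 in ST22 and ST23, 7.16 to 8.81 in 18-week and 7.98 to 9.80 in late tumours (difference 1.79, SE 0.52; 0.69 without them). The Dnajb9 difference had an adjusted p of 0.125 in limma and passed in 1 of 29 alternatives, without ST25 (adjusted p = 0.0436). Hspa5, which encodes BiP, read 9.97, 10.46 and 11.15 against 9.44, 10.27 and 10.62, with overlapping groups and a difference of 0.33 (SE 0.26; 0.11 without them).

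Markers of neighbouring tissues varied between animals within both ages. The mean of the seminal vesicle list ran from 6.04 to 11.27 on late and from 6.08 to 11.42 on early arrays, with ST15, ST6 and ST16 highest among the late and ST24 among the early. The skeletal muscle list had the lowest median, -0.54 (-0.45 without the 19-week arrays), with list means of 6.44 to 7.88 in late and 6.76 to 8.19 in early tumours. In limma 0 of its 12 members passed and 2 (16.7%) had an unadjusted p under 0.05, both lower. The adipose tissue list had a median of 0.05 over 9 genes (0.12 without the 19-week arrays), with 0 passing in limma. At an unadjusted p under 0.05 it had 2 higher and 0 lower (22.2%, near the 21.4% of all probe sets). Fabp4, the fatty acid binding protein of adipocytes, had the largest difference of that list, 1.69 (SE 0.78; 1.75 without the 19-week arrays). It read 7.05 to 10.76 in late and 6.28 to 8.60 in early tumours. Its highest late levels were in ST15, ST3 and ST6, and 3 late arrays lay within the early range. Salivary-type secretory genes, chosen after their values were seen as among the largest differences, were high in a pair of early tumours. Smr2, a submaxillary gland protein, was 10.91 in ST25 and 11.44 in ST26, 8.22 in ST22 and 5.56 to 7.11 elsewhere, and its difference of -1.90 (-2.28 without the 19-week arrays) was the largest downward one. Pip, prolactin-induced protein, was 9.80 and 10.42 in ST25 and ST26 and 5.11 to 6.47 in the other 13 arrays, with a difference of -1.32 (-1.998 without the 19-week arrays). How far the proportion of such tissue set other differences was not tested.

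TRAMP mice with intact SPARC were compared at other ages, 16 weeks for the early and 24 to 25 weeks for the late group. Their late minus early difference gave 0 calls in limma (0%) and 1063 probe sets at an unadjusted p under 0.05 (4.79%). The test of the difference between the age effects, SPARC-null TRAMP minus TRAMP, also gave 0 calls (0%), with 858 at an unadjusted p under 0.05 (3.86%) and a smallest adjusted p of 0.364. No gene's age difference was shown to differ between these genotypes in this fit, in which early ages and genotype cannot be told apart. With the late SPARC-null group reduced to ST15 and ST16, which match the late TRAMP animals in age, 40 probe sets passed. Of these, 39 had the higher value in SPARC-null TRAMP. ST15 and ST16 had the highest array quality of the 15 arrays, 0.780 and 0.761, against a mean of 0.731 in late TRAMP. The early ages stayed unmatched, and the part of array quality in these calls was not tested. Side by side, the age difference in TRAMP was 0.84 for Tff3, 0.46 for Hepacam2, 0.54 for Gbp3, 0.38 for Samd9l and 0.90 for Mmp7. These have the sign seen in SPARC-null TRAMP. The smooth muscle median was -0.11 and the interferon median 0.15 in TRAMP. Egflam (a matrix protein chosen after its values were seen), Nid1 and Fn1 differed by 0.52, 0.47 and 0.52 in SPARC-null TRAMP. Their TRAMP values were -0.12, -0.13 and -0.04. In the fit above, the test of the difference called none of the genes set side by side. No difference between the genotypes was thus shown for them.

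SPARC-null mice without the transgene were compared by age as well. Their array quality averaged 0.777 ± 0.0240 (SD, n = 4) in late and 0.746 ± 0.0304 (n = 7) in early animals. Between 4 late and 7 early animals limma called 0 probe sets (0%), with 1541 at an unadjusted p under 0.05 (6.94%). The difference of the age effects with and without the transgene gave 0 calls (0%) and 723 at an unadjusted p under 0.05 (3.26%). Median differences without the transgene were 0.23 for smooth muscle, 0.49 for luminal secretory products, 0.04 for the interferon response and -0.90 for skeletal muscle. Gene by gene, Postn differed by 1.08, Lum by 1.08, Sparcl1 by 1.22 and Fabp4 by 1.75 in these animals, all with the sign seen with the transgene, and Tff3 by -0.17.

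Against OPN-null TRAMP tumours the age difference of SPARC-null TRAMP tumours did differ. OPN, osteopontin, is a secreted matricellular phosphoprotein encoded by Spp1, which is unnamed on the array. From early to late, OPN-null TRAMP tumours had 4969 called probe sets in limma (22.4%), where SPARC-null TRAMP tumours had 0. The difference of the age effects was called at 6026 probe sets (27.1%), 2588 with the higher and 3438 with the lower value in SPARC-null TRAMP. It rests on 3 late OPN-null TRAMP arrays, whose array quality averaged 0.708 ± 0.0216 (SD, n = 3) against 0.739 ± 0.00802 (n = 6) in the early ones. With array quality as a covariate 2777 probe sets were called, and 3862 without the 19-week SPARC-null arrays.

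The 6 largest called differences with the higher value in SPARC-null TRAMP included products of glandular secretion. Pbsn averaged 10.97 ± 0.54 (SD, n = 9) in late and 10.53 ± 0.45 (n = 6) in early SPARC-null TRAMP tumours, while in OPN-null TRAMP tumours it fell from 11.15 ± 0.59 (n = 6) to 4.95 ± 0.62 (n = 3). The difference of the age effects for Pbsn was 6.64 (SE 0.80, limma adjusted p = 1.14e-07). Tspan1, a membrane protein of the tetraspanin family, differed by 0.73 and -5.01 in the SPARC-null and OPN-null TRAMP tumours (difference of effects 5.74). Zfp992 and Ndufa1, a zinc finger gene and a subunit of mitochondrial complex I, differed by 1.53 and 1.38 against -4.37 and -4.69. Within SPARC-null TRAMP the Zfp992 difference did not pass in limma (adjusted p = 0.12). Its adjusted p was 0.132 with the 15 SPARC-null TRAMP arrays fitted alone and 0.329 with array quality as a covariate. It passed in 2 of 29 alternatives, without ST24 (adjusted p = 0.0438) and without ST25 (0.0446). Pate14 and Svs5, secretory genes of the male accessory glands, differed by 0.99 and -0.44 against -5.93 and -7.11, with wide errors (adjusted p = 0.00527 and 0.0391 in limma). The call of Svs5 was lost without the 19-week arrays (adjusted p = 0.0833) and that of both genes with array quality as a covariate (0.122 for Pate14 and 0.172 for Svs5).

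The 6 largest called differences in the other direction were a mitochondrial carrier, neuronal genes, a noncoding transcript and a matricellular gene. Slc25a21, a mitochondrial carrier, was 3.90 ± 0.22 in late and 3.94 ± 0.28 in early SPARC-null TRAMP tumours, and went from 3.99 ± 0.30 to 9.38 ± 0.56 in OPN-null TRAMP tumours (difference of effects -5.43, SE 0.34, limma adjusted p = 1.92e-14). Elavl4 and Elavl3, RNA-binding proteins of neurons, differed by -0.21 and 0.02 in SPARC-null against 4.27 and 4.20 in OPN-null TRAMP tumours. Syt1, the calcium sensor of synaptic vesicles, differed by -0.04 against 3.93. Ipw, a noncoding transcript of the imprinted Prader-Willi region, and Ccn3, a matricellular protein, differed by -0.37 and 0.22 against 4.56 and 4.47. In SPARC-null TRAMP tumours the 6 differences thus lay between -0.37 and 0.22.

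**Figure D4:**
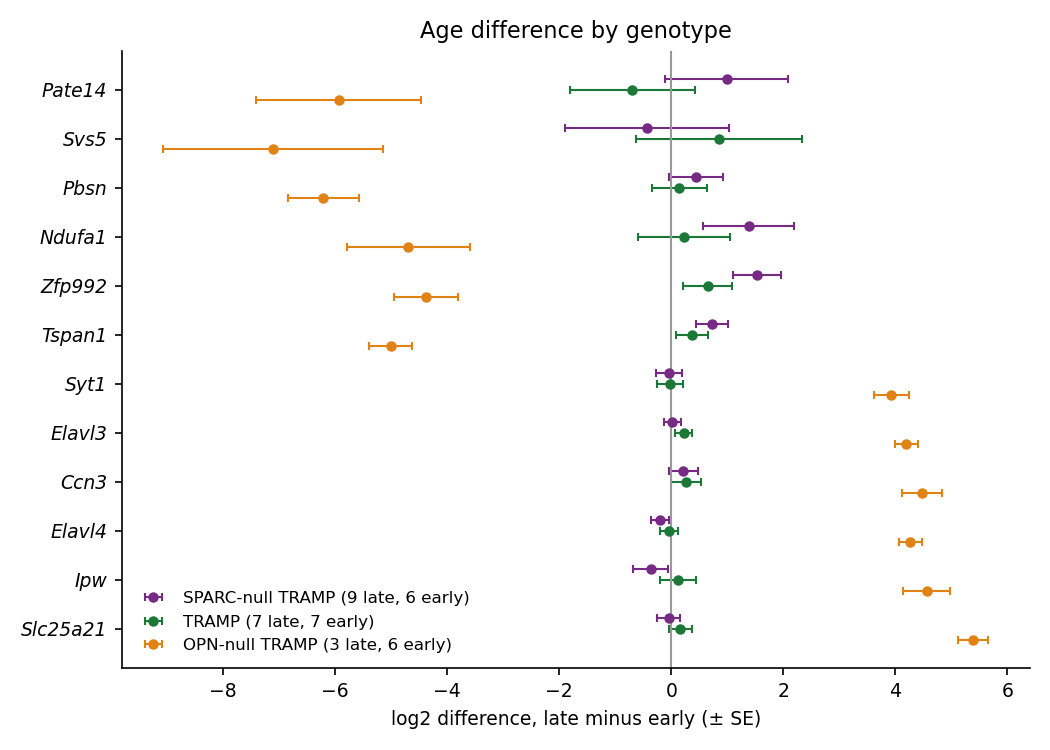
Log2 difference, late minus early, with its SE for the 6 genes with the largest called difference of age effects in each direction between SPARC-null and OPN-null TRAMP tumours, with TRAMP shown beside them. SPARC-null TRAMP values lie between -0.44 and 1.53, while OPN-null TRAMP values run from -7.11 to 5.39.

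By list, members called in the difference of the age effects stood against a background of 27.1%. Prostate luminal secretory genes had 14 of 22 called, all higher in SPARC-null TRAMP, smooth muscle 12 of 14, the unfolded protein response 13 of 15, luminal keratins and progenitor markers 7 of 10 and the interferon response 6 of 16, each also in that direction. Synaptic and neuronal genes had 15 of 23 called, and kinetochore, spindle and condensin genes 20 of 27, all lower in SPARC-null TRAMP. Of 20 neuroendocrine transcription factors 1 was higher and 6 were lower, and of 21 mitotic kinases and checkpoint genes 1 was higher and 12 were lower. Without the 19-week arrays these counts were 13, 13, 12, 7 and 3 for the first group and 15 and 21 for the second, against 17.4% of all probe sets. The neuroendocrine factors then had 1 higher and 4 lower, and the mitotic genes 0 higher and 14 lower. With array quality as a covariate, against 12.5% of all probe sets, the counts were 11, 10, 11, 7 and 3, and 14 and 20. The neuroendocrine factors had 1 higher and 2 lower there, and the mitotic genes 0 higher and 13 lower. Of these lists, the interferon response and the neuroendocrine factors lay nearest to the share of all probe sets in each fit. Their counts are therefore not read as a result about those lists. Median late minus early differences were -1.87 in OPN-null TRAMP, 0.28 in SPARC-null TRAMP and 0.12 in TRAMP for luminal secretory genes. In the same order they were -1.82, 0.42 and -0.11 for smooth muscle and -1.30, 0.33 and 0.19 for the unfolded protein response. They were 0.74, -0.04 and -0.02 for synaptic and neuronal genes. In these lists the larger change was thus that of OPN-null TRAMP. For the interferon response the values were -0.22, 0.24 and 0.15.

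Promoters of the called members were searched for short elements, on both strands, in the 250 bases before each gene's start (RefSeq, GRCm38.p6). Members called with the higher and with the lower value in SPARC-null TRAMP were pooled. Of 50 called genes of the cell cycle lists, 42 have a promoter in the table, and 11 of those (26.2%) hold the cell cycle homology element TTTGAA, against 18.3% of all 27025 genes with a promoter. The E2F elements TTTCCCGC and TTTGGCGC were each found in 1 of the 42 (2.38%, against 1.03% and 0.485% of all genes). The androgen receptor hexamer AGAACA was found in 5 of 15 promoters (33.3%) of the 21 called androgen-regulated and secretory genes, against 18.2% of all genes. Pbsn, shown above, is one of the 5. These are matches of letters and not binding sites. Cdk1, the kinase that starts mitosis, carries TTTGAA at 2 places and is shown as the example of the cell cycle genes. It differed by -0.03 in SPARC-null and 1.495 in OPN-null TRAMP tumours (difference of effects -1.52, limma adjusted p = 2.86e-05). The stretch lies at chr10:69352913-69353162 on the minus strand, 5′ to 3′, with the elements in capitals, whose first bases lie 71 and 15 bases upstream.
Cdk1: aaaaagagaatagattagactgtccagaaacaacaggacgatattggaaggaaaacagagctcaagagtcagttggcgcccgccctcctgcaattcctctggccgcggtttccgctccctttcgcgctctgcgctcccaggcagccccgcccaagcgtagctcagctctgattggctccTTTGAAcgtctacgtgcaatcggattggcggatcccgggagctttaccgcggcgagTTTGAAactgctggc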

How the data were processed

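Total RNA of 68 mouse prostate samples was measured on Clariom S arrays. The deposited table holds log2 values made with RMA in the oligo package, per the submitters' processing notes; no version is given in the sources used here. RMA includes quantile normalisation, which assumes that most probe sets do not shift one way and compresses differences at low signal. Columns were matched to samples by the identifiers in the header, and 0 were unused.

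Of 29129 probe sets, 6923 controls stayed out of the tests, and 19572 of the 22206 others have a gene symbol in the platform annotation. The 38 transgenic arrays were fitted with 1 mean per group in limma 3.58.1 (R 4.3.3; lmFit, eBayes, 2-sided), with Benjamini-Hochberg adjustment over 22206 probe sets and calls at an adjusted p under 0.05. Comparisons with animals without the transgene used 67 arrays, weighted by transgene status; 1 array with conflicting labels was left out. Single values per array were compared by 2-sided exact permutation tests. The scripts were tested on simulated data. Precision is limited by the number of arrays.

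Sparc, the 12 largest called changes each way, up to 4 called members each way of each list (any member where none was called) and the 6 largest called each way of a difference of age effects were to be named; other genes are named as chosen after their values were seen. The members and lists were chosen with earlier results of these data known. Alternatives covered the arrays fitted, weights, array quality, tissue covariates, dim probe sets, normalisation, the prior and leaving out arrays.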

Additional observations from a re-analysis of the deposited data

Results flagged for a closer look

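Of 54 sets of 6 to 9 arrays examined for a single array far from the rest, 3 gave one, and chance gives about 1 in 20. Car6, a secreted carbonic anhydrase of salivary glands, read 5.30 in the late array ST15, with the next late array at 5.97. Atp2a1, the calcium pump of fast skeletal muscle, read 5.31 in the early array ST27, with the next early array at 8.98. Pgam2, the muscle form of phosphoglycerate mutase, read 5.82 in ST27, with the next early array at 7.41. ST27 was thus the early array with the lowest level of both muscle genes, and its skeletal muscle list mean of 6.76 was the lowest of the 6 early arrays.

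The age effects of SPARC-null TRAMP and OPN-null TRAMP tumours differed at 6026 probe sets by limma's test of the difference itself, which rests on 3 late OPN-null TRAMP arrays.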

How the results depend on the processing

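The count of 0 adjusted calls between late and early SPARC-null TRAMP tumours became 1 with the 15 arrays alone (Samd9l), 8 with all 67 arrays, 1 with a filter on dim probe sets, 1 after a further quantile normalisation (Zfp865 in both), and 0 to 279 with 1 array left out. The 4747 probe sets at an unadjusted p under 0.05 became 2590 with 1 weight per array, 2100 with array quality as a covariate, 2881 without low-quality arrays, 1479 with the smooth muscle list as a covariate, 2733 without the 24-week late arrays, 2383 with age as a number, and 2263 to 6004 with 1 array left out. Chosen after seeing the data, leaving out the 19-week arrays gave 956, leaving out the 24-week arrays as well gave 685, and adding array quality instead gave 1252. Against TRAMP, late arrays of 24 and 25 weeks alone gave 40 calls and 2826 at an unadjusted p under 0.05 (617 to 1648 with 1 array left out). Against OPN-null TRAMP the calls were 2777 with array quality as a covariate, 3862 without the 19-week arrays and 4536 to 6716 with 1 array left out. Against SPARC-null mice without the transgene, array quality as a covariate gave 2052 at an unadjusted p under 0.05 (578 to 1146 with 1 array left out). The cause of these shifts was not tested.

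Of the differences of single genes, the Uggt1 difference turned to -0.14 without the 19-week and 24-week arrays, and the Fam98b difference to -0.16 there and to -0.13 without the 19-week arrays with array quality as a covariate. Of the other values 711 kept their sign and side of the threshold and 11 passed it. No paired analysis was possible because late and early animals are different animals that share no number. The SV40 difference ran from 0.56 to 0.91 with 1 array left out. Dim genes near the negative controls are limited by signal over background.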
